A study of Mus musculus with 12 samples.

Results

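A set of 10 genes of protein folding and protein degradation in the endoplasmic reticulum was followed in whole mouse kidney: Hspa5, Hsp90b1, Dnajb9, Sdf2l1, Pdia4, Creld2, Herpud1, Edem1, Xbp1 and Atf6. They were chosen by symbol, with earlier results of these data known, and all 10 were found among the 28991 gene identifiers of the count table. All 10 also passed the filter on low counts, which left 20370 genes for testing. RNA was sequenced from kidneys of male BALB/c mice, an inbred laboratory strain, aged 8 weeks, in 4 groups of 3 mice. The saline group received saline into the peritoneum every day for 6 days, and the dichloroacetate group received dichloroacetate (DCA) at 250 mg per kg in the same way for 6 days. The cisplatin group had saline for 5 days and was then injected once with cisplatin at 20 mg per kg. The combination group had 5 days of DCA at 250 mg per kg and then the same cisplatin dose given together with DCA. Kidneys of both cisplatin groups were taken 24 h after the injection. Cisplatin is a platinum drug that injures the kidney tubule, and DCA inhibits the pyruvate dehydrogenase kinases. The study asked whether DCA protects the kidney from cisplatin.

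The endoplasmic reticulum is where secreted and membrane proteins fold. When unfolded protein builds up there, the membrane sensors IRE1, PERK and ATF6 signal to the nucleus, a programme called the unfolded protein response. IRE1 splices the Xbp1 messenger RNA into the form that encodes the active factor, ATF6 is cut in the Golgi to release a transcription factor, and both factors raise chaperones such as Hspa5 and the machinery that returns misfolded protein to the cytosol for destruction. Tubule cells carry many transporters in their membranes, all of which are made in this compartment. Counts per gene do not separate the spliced from the unspliced Xbp1 messenger, nor whole from cut ATF6 protein.

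The promoters of this programme carry short DNA elements, and those of Hspa5 and Herpud1 are shown because their exact matches are to different elements. No link between an element and a reading was tested. The sequences are from RefSeq (GRCm38.p6, strain C57BL/6J, which is not the strain of these mice). Each run is 250 bases ending just before the annotated start of transcription, 5′ to 3′ on the gene's strand. Capitals mark matches to 3 elements searched on both strands: CCAAT, any 9 bases and CCACG (the endoplasmic reticulum stress element); ATTGG, 1 base and CCACG (its other form); and TGACGTG (the core of the unfolded protein response element). The Hspa5 run is chr2:34771840-34772089 on the plus strand, and the Herpud1 run is chr8:94386179-94386428 on the plus strand.
Hspa5: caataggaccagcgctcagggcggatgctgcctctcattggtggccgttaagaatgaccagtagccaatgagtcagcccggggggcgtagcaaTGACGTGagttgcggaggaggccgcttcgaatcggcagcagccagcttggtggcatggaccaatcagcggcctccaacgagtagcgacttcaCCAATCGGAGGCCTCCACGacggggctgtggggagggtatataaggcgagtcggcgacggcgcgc
Herpud1: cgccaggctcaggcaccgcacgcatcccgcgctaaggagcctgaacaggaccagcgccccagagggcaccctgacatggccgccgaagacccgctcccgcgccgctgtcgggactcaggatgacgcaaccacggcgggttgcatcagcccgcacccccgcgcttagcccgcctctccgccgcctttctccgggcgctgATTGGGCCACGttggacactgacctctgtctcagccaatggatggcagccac
Of the 10 genes, 9 had a promoter window in the RefSeq table (all but Atf6), and motif shares were counted over 250 bases before to 50 bases after the start. CCAAT, 9 bases and CCACG stood in 3 of these 9 windows (Hspa5, Hsp90b1 and Creld2), against 0.119% of 32851 windows of the same length from 27025 genes. Hsp90b1 held it in each orientation, and Creld2 held it reversed, and in these shorter runs capitals mark the fixed bases.
Hsp90b1, 212 bases before the start: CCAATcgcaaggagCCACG
Hsp90b1, 107 bases before the start: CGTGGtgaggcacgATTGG
Creld2, 126 bases before the start: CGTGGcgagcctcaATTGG
ATTGG, 1 base and CCACG stood in 1 of the 9 windows, that of Herpud1, against 0.0365% of all windows. TGACGTG stood in 1 of 9, that of Hspa5, against 2.01% of all. With 1 mismatch allowed in CCACG, the longer element stood in 5 of 9 windows, adding Pdia4 and Herpud1, against 0.998% of all. The bare CCAAT, which forms part of both of the longer elements, stood in 8 of 9 against 37.4%. The elements were searched because promoters of this programme are known to carry them, so the shares do not test an enrichment. A match describes these letters only.

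Levels are given as CPM, counts scaled to a common library total after TMM adjustment, and each gene's counts ran from no fewer than 174 per library (Sdf2l1) to at most 25742 (Hsp90b1). Library totals were 29505929 to 62237514 counts, with all 6 cisplatin-injected mice at or below 35925471 and all 6 others at or above 38236592. Per kilobase of exon (RPKM), the saline kidneys held most of Herpud1 (100.4 ± 6.93), Hsp90b1 (83.9 ± 8.22) and Hspa5 (78.5 ± 16.1), each a mean ± SD over 3 mice. The ranges of these 3 genes overlapped. Pdia4 (33.2), Xbp1 (32.7), Dnajb9 (19.2), Creld2 (17.6), Edem1 (15.5), Atf6 (5.82) and Sdf2l1 (4.18) followed in mean RPKM. After cisplatin the order was Hsp90b1 (65.3), Hspa5 (63.2), Xbp1 (41.8), Herpud1 (38.5), Pdia4 (26.2), Dnajb9 (24.7), Creld2 (20.7), Edem1 (13.3), Sdf2l1 (5.98) and Atf6 (2.76). By its mean, Herpud1 thus moved from the head of the order to below Xbp1. The ranges of these 2 genes after cisplatin overlapped (35.6 to 41.3 and 38.4 to 47.5 RPKM).

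**Figure D1:**
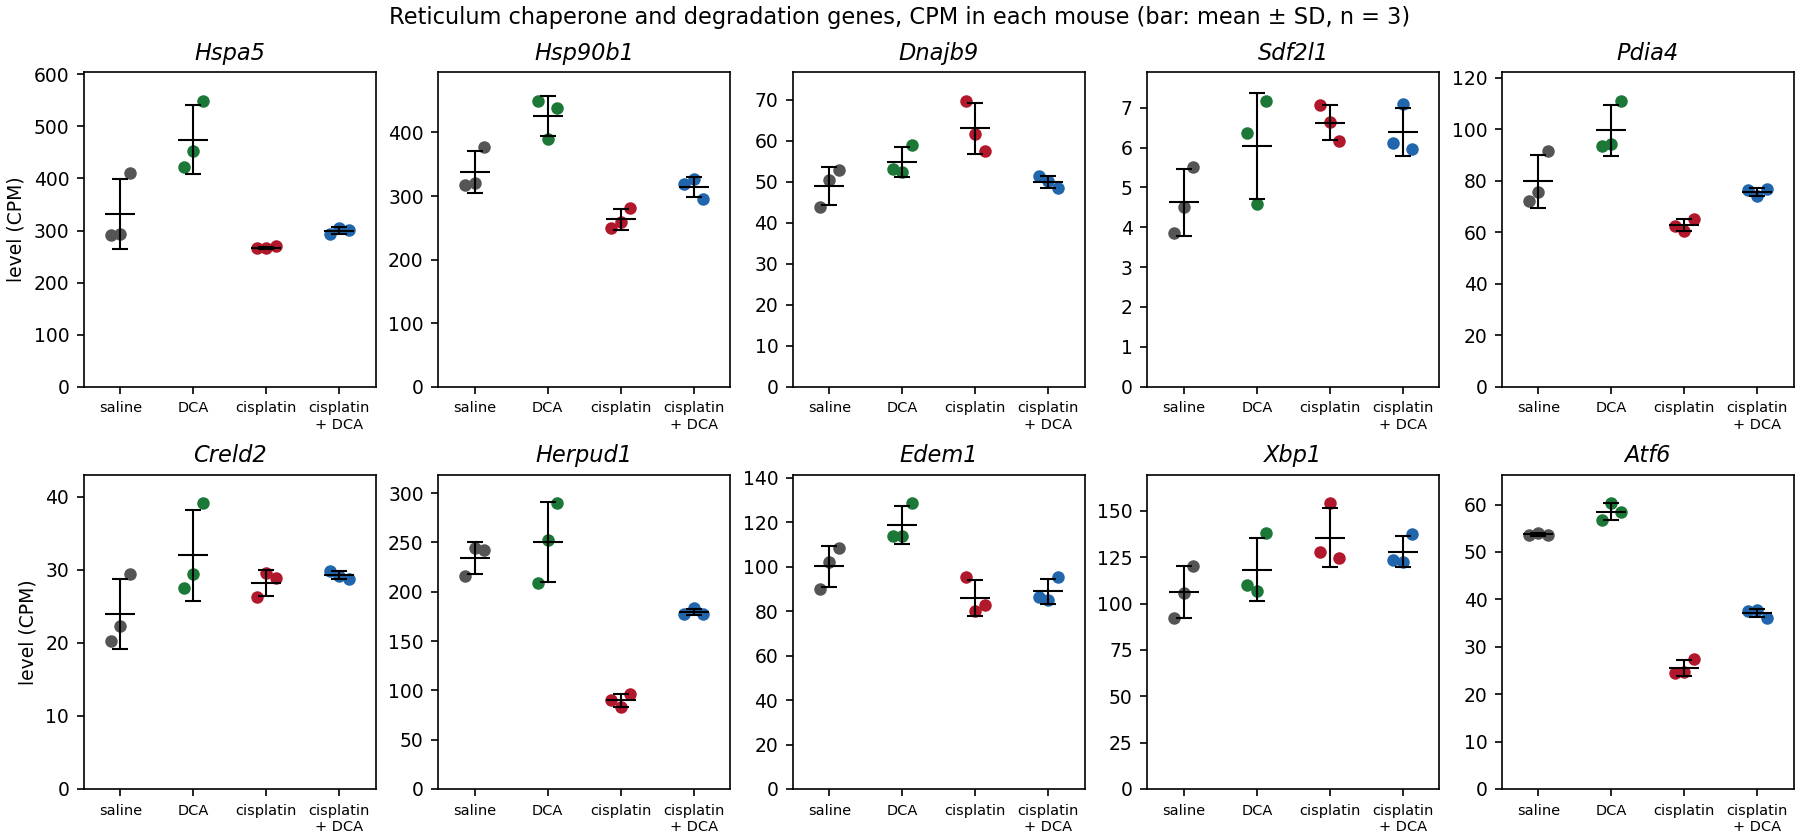
CPM of each of the 10 genes (vertical axes, from 0) in each mouse of the 4 groups, with the mean and SD of 3 mice in black. Herpud1 and Atf6 show the widest gap between the cisplatin mice and the saline mice, and the combination mice lie between them.

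After cisplatin the 10 genes moved in different directions. The largest falls were in Herpud1, the membrane scaffold of the HRD1 ubiquitin ligase that degrades reticulum proteins, and in Atf6, the sensor and transcription factor. Dnajb9, Sdf2l1 and Xbp1 rose by less. In all, 3 of 10 genes rose and 6 fell, where 60.1% of all tested genes were called, 29.7% rising and 30.4% falling. Calls were thus common among all genes as well. In 8 of the 10 genes (all but Creld2 and Edem1) the cisplatin and saline mice did not overlap, as in 64.8% of all genes. The median log2 difference was -0.27 over the 10 genes and -0.01 over all genes. The falls of Hspa5, Hsp90b1, Pdia4 and Edem1 depended on the scaling. With libraries scaled by their totals only, Herpud1 and Atf6 were the only 2 that fell, and Dnajb9, Sdf2l1, Xbp1 and Creld2 rose. With that scaling 17.7% of all genes fell and 47.9% rose, and the median of all genes stood at 0.265 in place of about 0. Adjusted p-values here and below are Benjamini-Hochberg values of the 2-sided edgeR quasi-likelihood test over all 20370 genes, and a gene was called below 0.05. The replicates are labelled biological, and each was taken as 1 mouse.

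Herpud1 (ENSMUSG00000031770, chr8:94386438-94395377, plus strand, build mm10) read 216, 244 and 243 CPM in the 3 saline mice and 90.3, 83.0 and 96.2 CPM in the 3 cisplatin mice. All 3 cisplatin mice lay far below all 3 saline mice. The Herpud1 promoter holds the ATTGG form of the stress element, and a link of that form to this reading was not tested. The level was 2.61-fold lower after cisplatin (log2 -1.38, SE 0.10, adjusted p = 6.1e-08). With DCA alone it was 209, 253 and 290 CPM, a range that covered that of saline (log2 0.10, SE 0.10, adjusted p = 0.75). The combination mice read 178, 183 and 178 CPM, above every cisplatin mouse and below every saline mouse. Herpud1 was higher in the combination than after cisplatin (log2 1.00, SE 0.10, adjusted p = 1.3e-05), at the 98.0th percentile of all genes in that comparison. Against saline it fell by 0.38 on the log2 scale (SE 0.10, adjusted p = 0.0069). Over 20 other settings its log2 difference ran from -1.44 to -1.10 for cisplatin with saline and from 0.87 to 1.05 for the combination with cisplatin. Another gene, the antisense transcript Gm15890, overlaps Herpud1 on the opposite strand without shared exons. It had 5333 counts against 91653 of Herpud1 over the 12 libraries.

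Edem1 (ENSMUSG00000030104, chr6:108828641-108859356, plus strand), a lectin-like protein that sends misfolded glycoproteins to degradation, read 90.1, 102 and 108 CPM in saline and 95.3, 80.2 and 82.7 CPM after cisplatin. The 2 groups overlapped. It fell by 0.22 on the log2 scale (SE 0.09, adjusted p = 0.040), while the value was 0.06 (adjusted p = 0.51) with library totals only, the opposite sign. The call was also lost with DESeq2 (adjusted p = 0.053) and with limma on the deposited normalised values (adjusted p = 0.053). Median-of-ratios scaling (adjusted p = 0.054) and a fit of only the groups compared (adjusted p = 0.085) lost it too. So did leaving out saline mouse 2 or 3, cisplatin mouse 2 or 3, or combination mouse 1 or 3. The combination read 86.2, 85.2 and 95.4 CPM (log2 0.05 against cisplatin, adjusted p = 0.73). Of the 2 degradation genes, only Herpud1 therefore differed between the combination and cisplatin by more than the spread of replicates.

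Atf6 (ENSMUSG00000026663, chr1:170704674-170867771, minus strand) read 53.7, 54.1 and 53.5 CPM in saline, 24.4, 24.7 and 27.4 after cisplatin and 37.5, 37.8 and 36.1 in the combination. No 2 of these groups overlapped, and each varied little within itself. It was 2.11-fold lower after cisplatin (log2 -1.08, SE 0.05, adjusted p = 1.3e-09). In the combination it was 1.46-fold higher than after cisplatin (log2 0.54, SE 0.05, adjusted p = 1.0e-05) and against saline it fell by 0.53 (SE 0.05, adjusted p = 2.6e-06). DCA alone gave 56.7, 60.3 and 58.3 CPM, all above the saline mice, with an adjusted p of 0.36 (log2 0.12, SE 0.05). Atf6 spans 163 kb, much more than the other 9 genes (2.25 to 30.7 kb). Over all genes the median log2 difference after cisplatin was -0.42 for the 1301 genes of 100 to 200 kb and -1.06 for the 781 longer ones, against 0.13 for the 5469 genes of up to 5 kb. Herpud1 spans 8.94 kb, in a class of 5 to 20 kb whose median was 0.08. The part of gene length in the reading of Atf6 was not tested.

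Xbp1 (ENSMUSG00000020484, chr11:5520659-5525893, plus strand), the factor activated by IRE1, read 92.3, 106 and 121 CPM in saline and 128, 154 and 125 CPM after cisplatin. Every cisplatin mouse was above every saline mouse. Total Xbp1 messenger rose 1.28-fold (log2 0.35, SE 0.12, adjusted p = 0.017). The call was lost without cisplatin mouse 2 (log2 0.25, adjusted p = 0.094) and without saline mouse 1 (log2 0.26, adjusted p = 0.080). The combination read 124, 123 and 137 CPM and did not differ from cisplatin by the test (log2 -0.08, SE 0.12, adjusted p = 0.64). The 2 transcription factors of the set thus parted after cisplatin, and their ratio does not depend on scaling. Per 100 Atf6 reads there were 172, 195 and 225 Xbp1 reads in saline, 524, 625 and 456 after cisplatin, and 330, 324 and 381 in the combination. The 3 groups did not overlap (exact permutation p = 0.10 for each pair, 2-sided, the smallest that 3 against 3 mice allow). This ratio was chosen after the values were seen.

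Hspa5 (ENSMUSG00000026864, chr2:34771970-34777547, plus strand) encodes BiP, the main chaperone of the reticulum, which also holds the sensors inactive. It read 292, 293 and 410 CPM in saline, 423, 452 and 549 with DCA, 266, 266 and 269 after cisplatin and 293, 305 and 301 in the combination. The DCA mice were the highest and the cisplatin mice the lowest, with no overlap between either group and saline. Hspa5 fell by 0.31 on the log2 scale after cisplatin (SE 0.12, adjusted p = 0.035). That value was -0.03 (adjusted p = 0.81) with library totals only and -0.13 (adjusted p = 0.20) without saline mouse 3. The call was also lost without any 1 of the cisplatin mice or without combination mouse 3. Limma on the deposited normalised values and an edgeR fit of only the groups compared lost it too (adjusted p = 0.053 for each). The combination was not called against cisplatin (log2 0.17, SE 0.12, adjusted p = 0.32). With only these 2 groups in the edgeR fit it was called as higher (log2 0.15, SE 0.05, adjusted p = 0.036). Against DCA alone, Hspa5 fell by 0.66 in the combination (SE 0.12, adjusted p = 0.00058).

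Hsp90b1 (ENSMUSG00000020048, chr10:86690209-86705509, minus strand), the reticulum member of the HSP90 family, read 318, 320 and 376 CPM in saline and 250, 259 and 282 after cisplatin. It fell by 0.36 (SE 0.08, adjusted p = 0.0013), or -0.08 (adjusted p = 0.32) with library totals only. In the combination it read 319, 327 and 296 CPM, all above the cisplatin mice, and rose by 0.25 against cisplatin (SE 0.08, adjusted p = 0.024), or 0.13 (adjusted p = 0.18) with library totals only. Exons of Hsp90b1 overlap those of Gm15344, Gm25745 and, on the opposite strand, the pseudogene 1810014B01Rik (45039 counts against 162126 of Hsp90b1), and the library kit is not stated to keep strand, so its values are uncertain.

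Dnajb9 (ENSMUSG00000014905, chr12:44205559-44210326, minus strand), a J-domain partner of BiP that assists degradation, read 43.8, 50.5 and 52.8 CPM in saline and 69.8, 61.7 and 57.6 after cisplatin. It rose by 0.36 after cisplatin (SE 0.08, adjusted p = 0.0016). The combination mice read 51.3, 50.1 and 48.4 CPM, all inside the saline range, and Dnajb9 fell by 0.34 against cisplatin (SE 0.08, adjusted p = 0.0064). Both calls held in all 20 other settings, with log2 values of 0.29 to 0.64 and -0.46 to -0.28. Per 100 Hspa5 reads there were 15.0, 17.3 and 12.9 Dnajb9 reads in saline and 26.3, 23.2 and 21.4 after cisplatin, with no overlap. The combination stood at 17.5, 16.4 and 16.1. Each exact permutation p was 0.10 for cisplatin against saline and for the combination against cisplatin, again for a ratio chosen after the values were seen. With DCA alone the ratio was 12.6, 11.6 and 10.7, below all saline mice (log2 -0.36, exact permutation p = 0.10).

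Sdf2l1 (ENSMUSG00000022769, chr16:17130138-17132383, minus strand), a small partner of the BiP chaperone complex, was the least abundant at 3.85, 4.51 and 5.52 CPM in saline. It read 7.07, 6.63 and 6.17 CPM after cisplatin and 6.11, 7.09 and 5.97 in the combination, so that both cisplatin groups lay above all saline mice. It rose by 0.52 after cisplatin (SE 0.16, adjusted p = 0.012) and by 0.48 in the combination against saline (SE 0.16, adjusted p = 0.032). Neither call was kept without saline mouse 1 (log2 0.41, adjusted p = 0.057, and log2 0.36, adjusted p = 0.12). The call against saline in the combination was also lost without saline mouse 2 or combination mouse 1 or 2. With DCA alone it ranged from 4.58 to 7.17 CPM and was not called (log2 0.39, adjusted p = 0.35).

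Pdia4 (ENSMUSG00000025823, chr6:47796141-47813430, minus strand), a disulfide isomerase, read 72.1, 75.4 and 91.6 CPM in saline, 62.5, 60.7 and 65.1 after cisplatin and 76.3, 74.1 and 76.8 in the combination. Its 3 cisplatin mice were below all others. It fell by 0.34 after cisplatin (SE 0.09, adjusted p = 0.0039) and rose by 0.27 in the combination against cisplatin (SE 0.09, adjusted p = 0.031), neither of which was called with library totals only (log2 -0.07, adjusted p = 0.46, and 0.14, adjusted p = 0.16). Creld2 (ENSMUSG00000023272, chr15:88819646-88826683, plus strand), a reticulum protein induced by stress there, read 20.3, 22.3 and 29.4 CPM in saline and 26.2, 29.6 and 28.8 after cisplatin. The ranges overlapped through saline mouse 3 (log2 0.24, SE 0.14, adjusted p = 0.14). Without that mouse the log2 difference was 0.40 (adjusted p = 0.013), and with library totals only it was 0.52 (adjusted p = 0.0021).

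**Figure D2:**
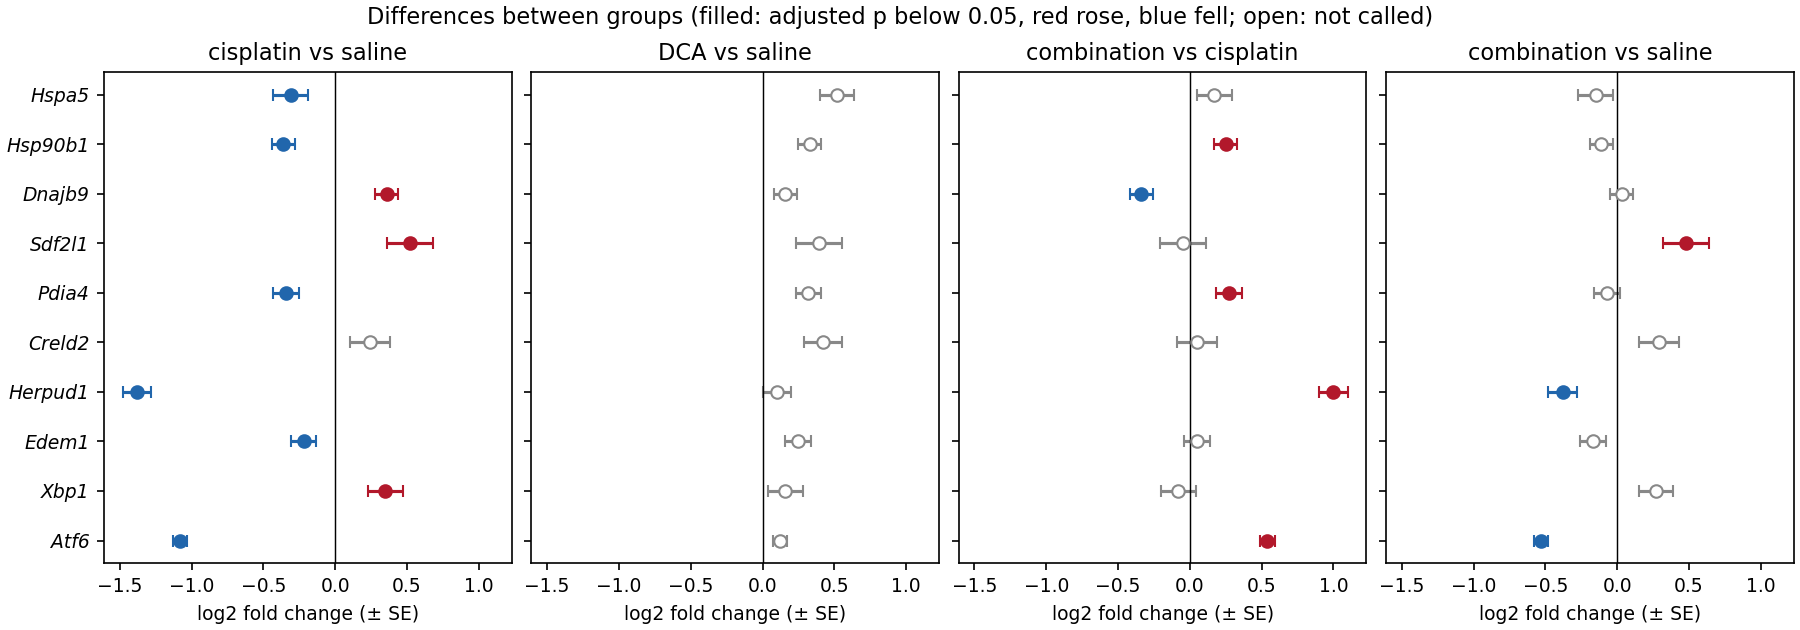
Log2 fold change (horizontal axes, bars are SE) of the 10 genes in 4 comparisons, filled where the adjusted p was below 0.05 (red rose, blue fell) and open otherwise. Herpud1 and Atf6 lie furthest left for cisplatin with saline (-1.38 and -1.08) and furthest right for the combination with cisplatin (1.00 and 0.54), while all 10 points for DCA with saline lie right of 0 and are open.

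Markers of several kidney cell types also changed, not all of them alike. All 10 proximal tubule markers fell after cisplatin, from a summed level of 13580 to 15331 CPM in saline to 3622 to 4379 CPM, and all 10 were higher in the combination than after cisplatin (6813 to 7513 CPM). None of the 10 was at 0 in every library, but this also held for the listed lymphocyte markers, so it does not test the tissue label. Of the 8 markers of the loop of Henle and distal tubule, 7 fell after cisplatin. Falls were also called for 5 of 8 collecting duct, 5 of 6 podocyte and 4 of 7 endothelial markers, against 30.4% of all genes. The log2 medians of these 3 lists were small, at -0.28, -0.36 and -0.37. Library totals only moved the median of all genes to 0.265, and marker calls under that scaling are not given here. In the combination against cisplatin, 2 loop and distal markers were higher and 1 lower. There, 2 collecting duct markers were higher, and no podocyte or endothelial marker was called. Of 7 tested markers of plasma cells, a type rich in reticulum, 1 rose after cisplatin (Sdc1, log2 0.93) and 3 fell (Igha, log2 -1.71, Ighm, -1.03, and Jchain), with a median of -0.98. Their summed level, 18.0 to 28.5 CPM in saline and 28.1 to 29.1 after cisplatin, was carried by Sdc1, at a mean of 10.9 and 20.9 CPM. Of 8 macrophage markers, 2 rose (Cd68, log2 4.00, and Itgam, 0.75) and 3 fell (Mrc1, -1.15, Csf1r, -0.87, and Adgre1, -0.57), with a median of -0.24. Their sums were 107 to 128 CPM in saline and 98.0 to 112 CPM after cisplatin. The part of these shifts in the values of Herpud1, Atf6 and the others was not tested, and in whole kidney fewer cells of a type and less RNA per cell cannot be told apart.

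With DCA alone none of the 10 genes was called, where 0.309% of all genes were. DESeq2 called 3 of them as higher (Hspa5, Hsp90b1 and Pdia4), as 1.18% of all genes with an adjusted p, and 7 of 10 had an unadjusted p below 0.05 in the edgeR test, against 11.9% of all genes. All 10 values were above 0, with a median of 0.28, against 48.3% of all genes and a median of -0.01. The largest was Hspa5 (log2 0.52, SE 0.12, adjusted p = 0.094), at the 98.0th percentile of all genes. Hsp90b1 stood at 450, 390 and 438 CPM against 318, 320 and 376 in saline (log2 0.33, SE 0.08, adjusted p = 0.10). Pdia4 stood at 93.3, 94.2 and 111 CPM (log2 0.32, SE 0.09, adjusted p = 0.16) and Edem1 at 114, 114 and 129 CPM (log2 0.25, SE 0.09, adjusted p = 0.27). All DCA mice lay above all saline mice in 5 of the 10 genes (Hspa5, Hsp90b1, Pdia4, Edem1 and Atf6), as in 16.0% of all genes. Creld2 (27.5, 29.4 and 39.1 CPM, log2 0.42, adjusted p = 0.22), Dnajb9 (log2 0.16, adjusted p = 0.46) and Xbp1 (log2 0.16, adjusted p = 0.65) overlapped with saline. In each of these groups mouse 3 stood out: saline mouse 3 was the highest of its group in 8 of 10 genes (it was so for 36.7% of all genes), and DCA mouse 3 in 8 of 10 (37.6% of all). Without saline mouse 3, Hspa5 (log2 0.70, adjusted p = 0.0066), Hsp90b1 (log2 0.42, adjusted p = 0.032) and Pdia4 (log2 0.43, adjusted p = 0.031) were called as higher, as were 0.35% of all genes. The summed level of the 10 genes ran from 1202 to 1491 CPM in saline and from 1543 to 1818 CPM with DCA, without overlap, and from 1019 to 1040 CPM after cisplatin and 1200 to 1222 CPM in the combination. Its rise with DCA was carried mostly by Hspa5 and Hsp90b1, at means of 475 and 426 CPM with DCA against 332 and 338 CPM in saline. As a share of all counts, with no TMM adjustment, the 10 genes took 0.116% to 0.136% in saline, 0.142% to 0.162% with DCA, 0.116% to 0.117% after cisplatin and 0.123% to 0.128% in the combination. The gap between DCA and saline thus stood on both scales, and that between cisplatin and saline only on the TMM scale.

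Against cisplatin alone, the combination had 4 of the 10 genes higher (Herpud1, Atf6, Hsp90b1 and Pdia4) and 1 lower (Dnajb9), where 31.6% of all genes were called, 18.1% higher and 13.5% lower. With library totals only, Herpud1 and Atf6 were the 2 that rose, where 11.4% of all genes rose. The combination and cisplatin mice did not overlap in 6 of the 10 genes (these 5 and Hspa5), as in 46.8% of all genes. Leaving out 1 mouse at a time, Hsp90b1 lost its call without cisplatin mouse 1 or 2 or combination mouse 1 or 2, and Pdia4 without these mice or combination mouse 3. Hspa5, Sdf2l1, Creld2, Edem1 and Xbp1 were not called, with log2 values between -0.08 and 0.17. With only the 2 groups compared in the fit, Hspa5 was called as higher (adjusted p = 0.036). Against saline, the combination had Sdf2l1 higher and Herpud1 and Atf6 lower, 3 of 10 genes, where 40.2% of all were called, 20.6% higher and 19.6% lower. The 2 groups did not overlap in 4 of the 10 genes (these 3 and Xbp1), as in 50.3% of all genes. The other 7 ranged from -0.17 (Edem1) to 0.29 (Creld2, adjusted p = 0.10). Creld2 and Xbp1 (log2 0.27, adjusted p = 0.081) were called without saline mouse 3 (log2 0.46, adjusted p = 0.010, and log2 0.37, adjusted p = 0.026).

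The response to cisplatin could also be read in mice that had DCA, from 6 mice that are not in the comparison of cisplatin with saline. There, 6 of the 10 genes fell and none rose, where 40.7% of all genes were called, 21.5% rising and 19.2% falling. The 2 groups did not overlap in 7 of the 10 genes (these 6 and Dnajb9), as in 52.8% of all genes. The 6 were Hspa5 (log2 -0.66), Atf6 (-0.65, SE 0.05, adjusted p = 3.8e-07), Herpud1 (-0.48, SE 0.10, adjusted p = 0.0015), Hsp90b1 (-0.44, adjusted p = 0.00055), Edem1 (-0.42, adjusted p = 0.0016) and Pdia4 (-0.39, adjusted p = 0.0027). All 6 calls held with library totals only, from -0.47 for Hspa5 to -0.20 for Pdia4. Dnajb9 (-0.14, adjusted p = 0.21), Creld2 (-0.12), Sdf2l1 (0.08) and Xbp1 (0.11) were not called.

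The difference between the 2 responses, tested as an interaction, was called for 3 of 10 genes, where 18.6% of all genes were called, 11.4% above 0 and 7.15% below. The fall was smaller with DCA for Herpud1 (interaction log2 0.90, SE 0.14, adjusted p = 0.00080) and Atf6 (0.42, SE 0.07, adjusted p = 0.0014). Dnajb9 rose without DCA and not with it (interaction -0.50, SE 0.11, adjusted p = 0.0089). These 3 calls held in all 19 other settings that gave an interaction, library totals included, with ranges of 0.79 to 1.02, 0.34 to 0.48 and -0.59 to -0.42. For Hspa5 the interaction was -0.35 (SE 0.17, adjusted p = 0.17), and without saline mouse 3 it was -0.53 (adjusted p = 0.0076). Creld2 likewise was called without that mouse only (-0.53, adjusted p = 0.041). The interaction was -0.08 for Hsp90b1 (SE 0.11, adjusted p = 0.68) and -0.05 for Pdia4, neither of them called. All 10 proximal tubule markers had an interaction above 0 that was called, with a median of 1.03, beside the values of Herpud1 and Atf6, and the part of that shift was not tested.

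**Figure D3:**
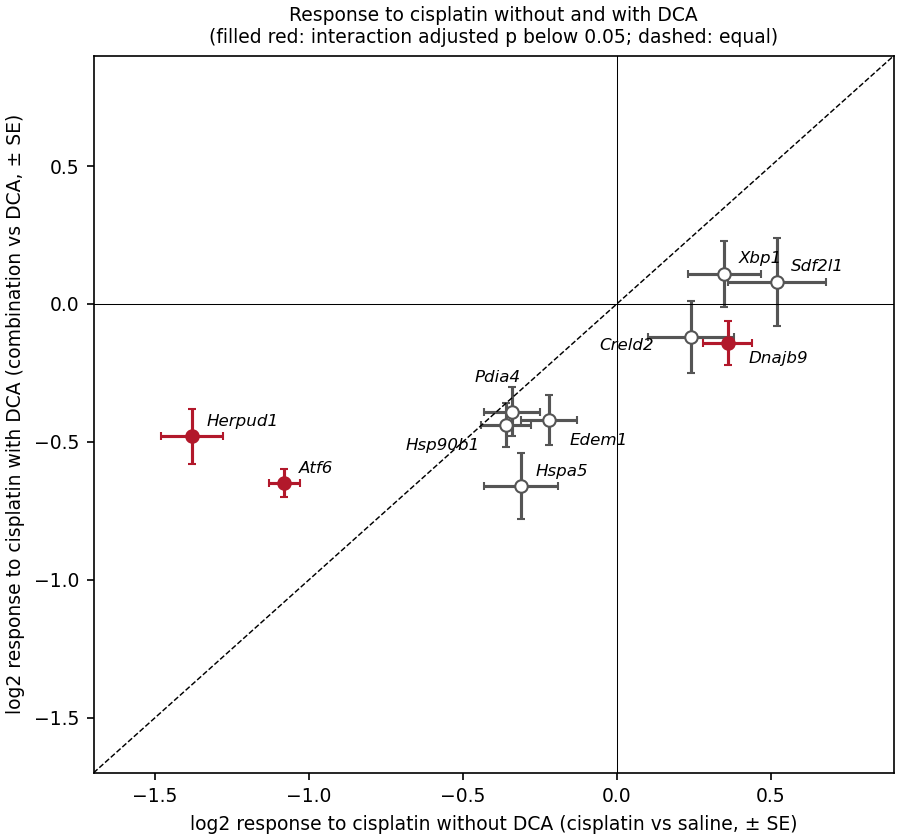
Log2 response to cisplatin without DCA (horizontal) and with DCA (vertical) for the 10 genes, bars are SE, the dashed line marks equal responses and filled red points have an interaction adjusted p below 0.05. Herpud1 and Atf6 lie above the line (-1.38 against -0.48 and -1.08 against -0.65), Dnajb9 below it (0.36 against -0.14).

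The ratio of Herpud1 to Hspa5, like that of Xbp1 to Atf6, is free of scaling and was chosen after the values were seen. Per 100 Hspa5 reads there were 73.7, 83.4 and 59.1 Herpud1 reads in saline, 49.4, 55.9 and 52.8 with DCA, 34.0, 31.2 and 35.7 after cisplatin and 60.6, 60.1 and 59.0 in the combination. Cisplatin mice were the lowest of all 12. The exact permutation p was 0.10 for cisplatin with saline and for the combination with cisplatin, and 0.30 for the combination with saline, which overlapped. It was also 0.10 for DCA with saline (log2 -0.44) and for the combination with DCA (log2 0.19), so the ratio was lower than in saline with DCA alone as well.

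A list of 99 further genes of the reticulum, all of which were tested, was read beside these 10. After cisplatin 27 rose, 45 fell and 27 were not called, with a median of -0.12. The share that fell was 45.5%, against 30.4% of all genes, and the share that rose 27.3%, against 29.7%. With library totals only, which shifts all genes upwards alike, 51 rose and 28 fell, or 51.5% and 28.3%, against 47.9% and 17.7% of all genes. The genes named next kept their direction with library totals only. Of 17 other chaperones and partners, 3 rose and 9 fell (7 and 4 with library totals only). The largest fall was in Sil1, the nucleotide exchange factor of BiP, from 40.5 to 41.4 CPM in saline to 4.52 to 5.52 CPM after cisplatin (log2 -3.02, SE 0.07, adjusted p = 4.4e-12). Sil1 spans 233 kb. Of the genes named below as falling, Creb3l2, Uggt2, Pdia5 and March6 span 115, 114, 93.6 and 75.2 kb. Others that fell are shorter, such as Tmbim6 (17.2 kb) and Sec61b (8.6 kb). The part of gene length in these falls was not tested. Dnajc3, a BiP partner and inhibitor of PERK, fell by 0.58 (adjusted p = 4.7e-07). Serpinh1, the collagen chaperone, rose by 0.62 (adjusted p = 0.00031), and the lectin chaperone calnexin (Canx) by 0.20 (adjusted p = 0.0032).

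Of 17 other isomerases and oxidases, 4 rose and 10 fell (8 and 7 with library totals only), led by Pdia5 (-1.25, adjusted p = 1.5e-07) and the oxidase Ero1lb (-0.74, adjusted p = 2.1e-05) downwards and Qsox1 (0.41) and Creld1 (0.30) upwards. Of 25 degradation genes, 8 rose and 9 fell (15 and 8 with library totals only). The ubiquitin ligase gene March6 fell from 219 to 247 CPM in saline to 97.2 to 111 CPM (log2 -1.16, SE 0.06, adjusted p = 3.6e-09), close to the size of the fall in Herpud1. Os9, a lectin of the HRD1 complex, fell by 0.81 (adjusted p = 3.0e-08). Ubxn4, which recruits the p97 ATPase to the membrane, rose by 0.64 (adjusted p = 7.2e-07), and the conjugating enzyme gene Ube2g2 by 0.38 (adjusted p = 0.00021). Degradation genes therefore moved both ways under each of the 2 scalings.

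Of 11 genes of glycan trimming and glycoprotein folding, 2 rose and 6 fell (5 and 2 with library totals only). Uggt2, a folding sensor for glycoproteins, fell by 1.14 and Rpn2, a subunit of the oligosaccharyltransferase, fell by 0.64, while the glucosidase genes Mogs (0.29) and Prkcsh (0.21) rose. Of 14 genes of translocation and signal peptide removal, 1 rose and 8 fell (5 and 4 with library totals only), with Sec11a at -0.79, Sec61b at -0.62 and Sec61a2 at 0.19. Of 15 sensors and transcription factors, 9 rose and 3 fell (11 and 3 with library totals only). Creb3l3, a membrane-bound factor of the ATF6 kind, went from 0.173 to 0.554 CPM in saline to 3.75 to 3.89 CPM after cisplatin (log2 3.40, SE 0.32, adjusted p = 8.5e-07). Ddit3, the gene of the stress factor CHOP, read 8.44, 8.65 and 12.2 CPM in saline and 30.8, 25.8 and 19.6 after cisplatin (log2 1.38, SE 0.17, adjusted p = 1.0e-05). Creb3l2, a relative of Creb3l3, fell by 1.20 (adjusted p = 1.9e-08) and Tmbim6, an inhibitor of IRE1, fell by 0.81. Ddit3 thus rose in the same mice in which Atf6 fell.

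**Figure D4:**
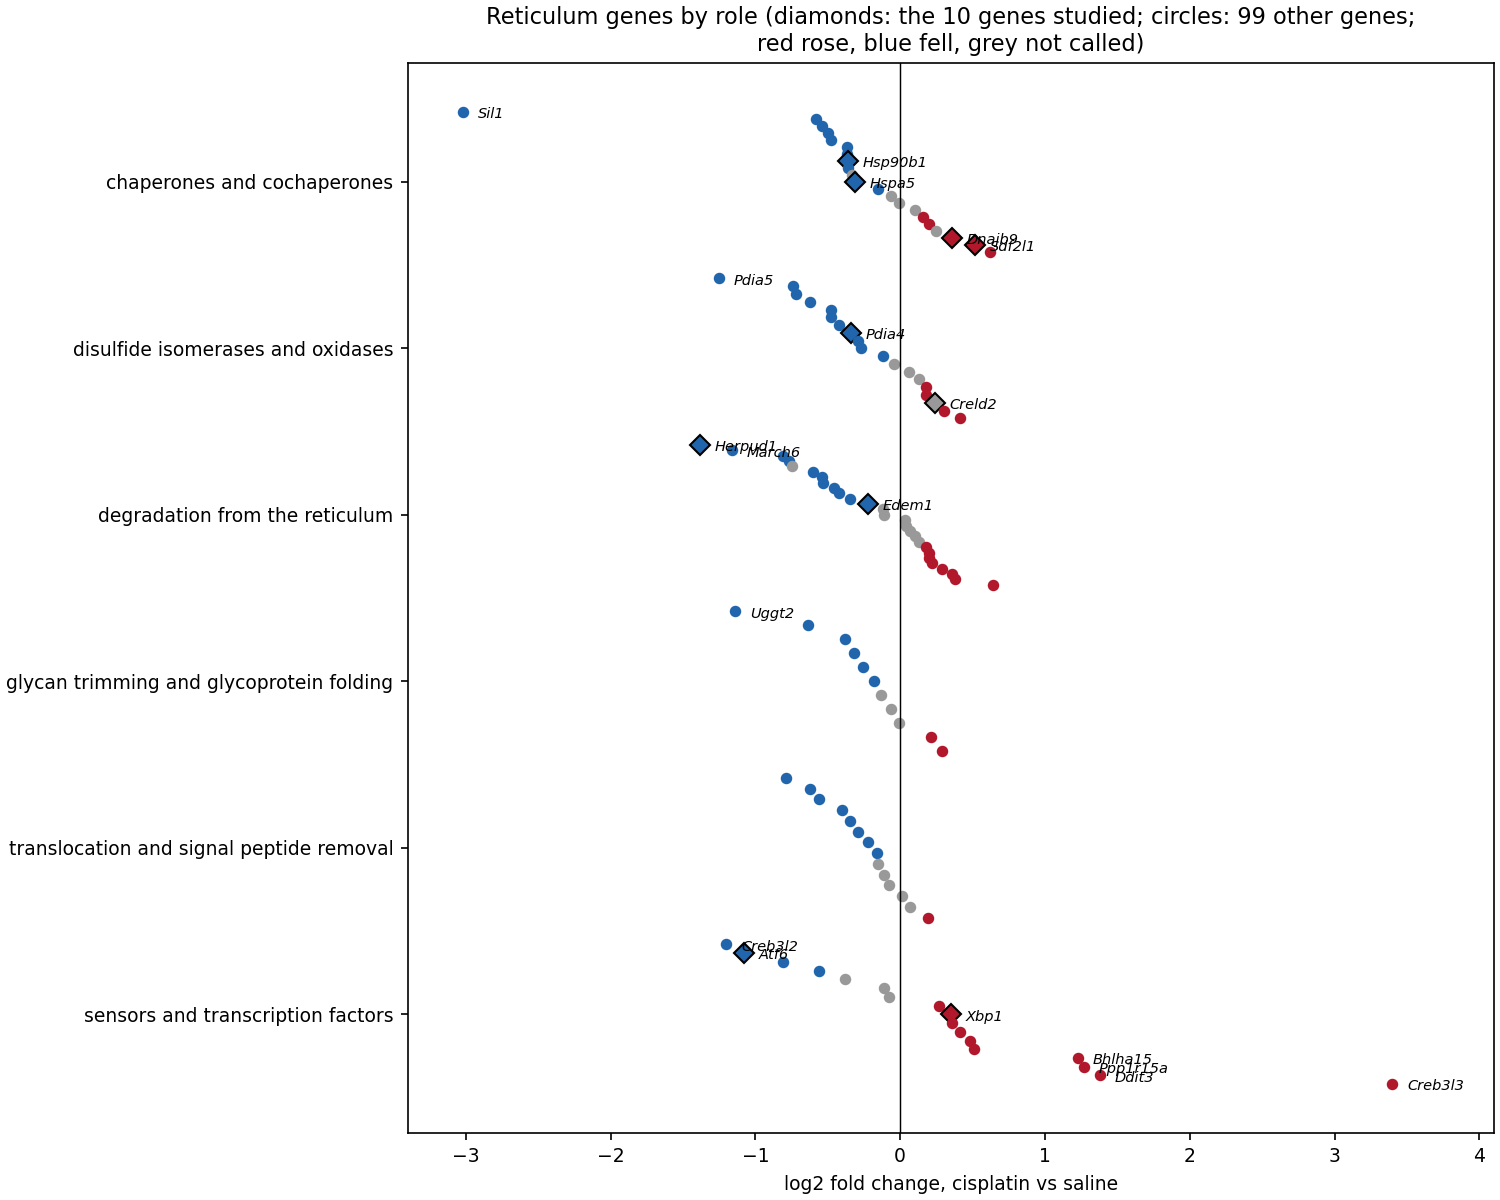
Log2 fold change of cisplatin with saline (horizontal axis) for the 10 genes (diamonds) and 99 other reticulum genes (circles) in 6 roles, red where a gene rose, blue where it fell and grey where it was not called. Most roles spread to both sides of 0, with Sil1 at -3.02 and Creb3l3 at 3.40 as the ends.

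With DCA alone none of the 99 genes was called by edgeR, 22 had an unadjusted p below 0.05, and DESeq2 called 4 as higher and 2 as lower. Their median was 0.05, against 0.28 over the 10 genes. In the combination against cisplatin 33 of the 99 were higher and 15 lower, or 33.3% and 15.2%, against 18.1% and 13.5% of all genes. With library totals only, which moves the median of all genes to -0.112, 16 were higher and 34 lower, or 16.2% and 34.3%, against 11.4% and 25.2% of all genes. Sil1 rose by 0.93 (adjusted p = 3.0e-06), Creb3l2 by 0.83, Pdia5 by 0.75, Uggt2 by 0.73, Ero1lb by 0.61, March6 by 0.53, Ngly1 by 0.38 and Tmbim6 by 0.30. Ddit3 fell by 0.92 (adjusted p = 0.0010) to 12.9, 12.3 and 15.0 CPM, and Creb3l3 fell by 0.96 (adjusted p = 0.014). Qsox1 (-0.40), Ubxn4 (-0.35), Ube2g2 (-0.34), Mogs (-0.32) and Ero1l (-0.18) fell as well. Fkbp11 (0.55), Sec11a (0.41), Sec61b (0.34) and Uggt1 (0.26) were also higher and lost their calls with library totals only.

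The interaction was called above 0 for 14 of the 99 genes and below 0 for 10, or 14.1% and 10.1%, against 11.4% and 7.15% of all genes. With library totals only 9 were above and 22 below, or 9.09% and 22.2%, against 8.4% and 11.7% of all genes. The 3 largest above 0 were Creb3l2 (1.05, adjusted p = 7.5e-05), Sil1 (0.96, adjusted p = 6.7e-05) and Uggt2 (0.89, adjusted p = 0.0068). The 3 largest below 0 were Ddit3 (-1.06, adjusted p = 0.0086), Ppp1r15a (-0.68, adjusted p = 0.0041) and Ubxn4 (-0.44, adjusted p = 0.0029). Ppp1r15a encodes the phosphatase subunit that ends the PERK signal. All 6 kept their side and call with library totals only. Creb3l2, Sil1 and Uggt2 span 115, 233 and 114 kb, and Ddit3, Ppp1r15a and Ubxn4 span 5.5, 3.4 and 35.4 kb. The part of gene length in these interactions was not tested.

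The genes whose 3 log2 differences from saline (cisplatin, DCA, combination) came closest to those of 3 of the members were searched among 10491 genes of at least 10 CPM. For Herpud1 the nearest was Polr3e (-1.37, 0.03 and -0.39, at a Euclidean distance of 0.0713), then Lrrk2, Flrt1, Thada and Uroc1 (0.0774 to 0.115). For Xbp1 the nearest was Atp6v0a2 (0.35, 0.15 and 0.26, distance 0.0108), then Tcp1, Myef2, Mbtps2 and Eif2s3x (0.0278 to 0.0341). For Hspa5 the nearest were Zfp810 (0.169), Mir207, its fellow member Hsp90b1 (0.194), Hsd11b1 and Lrrc58 (0.205). The 5 genes nearest to Hspa5 were thus farther from it than the 5 nearest to Herpud1 or Xbp1 were from theirs.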

How the data were processed

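RNA of 12 kidneys was sequenced, and the labels' protocols give column-purified, DNase-treated total RNA and an Illumina TruSeq RNA kit. Per the submitters' processing notes, Trimmomatic, TopHat, Cufflinks, HTSeq, bedtools, DESeq and build mm10 were used, with no version or role given. The authors deposited whole-number counts per Ensembl gene. They also deposited a normalised signal, which equals the counts divided by 1 factor per library and was used for an alternative only. Of 28991 identifiers, 27955 matched a symbol in GENCODE M21 (GRCm38, the assembly of mm10).

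Counts were filtered with filterByExpr, scaled by TMM and fitted with the edgeR 4.0.16 quasi-likelihood test in R 4.3.3, all 12 libraries in 1 model with a mean per group and no replicate block (20370 genes, 8 residual degrees of freedom, biological coefficient of variation 0.0917). SE is the log2 fold change divided by the square root of its F value. CPM and RPKM were computed from the counts. RPKM uses the union of a gene's exons. The interaction subtracts the log2 cisplatin response without DCA from that with DCA. The script was tested on simulated data. Alternatives were DESeq2 1.42.0, limma 3.58.1 on log2 of the deposited normalised values plus 1, other scalings, no filter, only the groups compared, a replicate block and leaving out each mouse. Scaling by library totals only was added after seeing the data.

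All 10 genes are named in each comparison. Of the other reticulum genes, those with the 2 largest called rises and 2 largest called falls per role are named for cisplatin with saline and the combination with cisplatin, and the 3 largest of each sign for the interaction. The nearest genes are the 5 closest. The genes and lists were chosen with earlier results of these data known. Library totals were 29505929 to 62237514 counts. Each group has 3 mice, which limits precision, and for Sdf2l1, with 174 to 364 counts per library, counting error adds to the spread.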

Additional observations from a re-analysis of the deposited data

Results flagged for a closer look

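The responses of 3 of the 10 genes to cisplatin differed between mice with and without DCA by the interaction test of edgeR. Herpud1 had an interaction of 0.90 on the log2 scale (adjusted p = 0.00080), and Atf6 one of 0.42 (adjusted p = 0.0014), both smaller falls with DCA. Dnajb9 had one of -0.50 (adjusted p = 0.0089). The other 7 genes were not called.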

How the results depend on the processing

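Over 20 alternatives, the 60 log2 values of the 10 genes (6 comparisons) gave 1190 values. Of these, 1128 kept their side of the threshold and, where called, their direction. Another 38 lost a call, 23 gained one and 1 changed sign across a call. Values that changed sign without a call on either side are among the 1128. With library totals only (chosen after seeing the data), the called value that turned was Edem1 for cisplatin with saline, at 0.06. Values that were not called also changed sign, such as Hspa5 for the combination with saline (-0.15 to 0.01). The median of all genes moved to 0.265 for cisplatin with saline and -0.112 for the combination with cisplatin. It moved to 0.203 for the combination with DCA and 0.159 for the combination with saline. Under that scaling the members that fell after cisplatin were 2, the other reticulum genes 51 up and 28 down; in the combination against cisplatin 2 members rose, with 16 others up and 34 down; against DCA 1 member rose (Xbp1, 0.31), with 38 up and 21 down; against saline 3 members rose, with 33 up and 14 down; and the interaction had 9 up and 22 down. These shifts follow from the scaling itself. For DCA with saline, where 63 genes were called in all, DESeq2 called 336 (3 members and 4 others up, 2 others down), no filter 119 (1 member up), library totals 134 (2 others down) and only the groups compared 15; the cause was not tested.

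Whether the replicate numbers pair the mice was not settled. Deviations of same-numbered mice correlated at -0.0953 to 0.152 over 18 pairs, 4 of them above 0.1. Over the 36 pairs of other numbers they correlated at -0.215 to 0.187. With the replicate block, DCA with saline had 117 genes called, 1 member up (Hspa5, 0.52, adjusted p = 0.032) and 1 other up, and the combination against saline had 3 members up (Creld2 0.31 and Xbp1 0.28 added).

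Leaving out 1 mouse at a time gave these lowest and highest counts. After cisplatin 1 to 4 members rose, with 1 without saline mouse 1. For DCA with saline 15 to 126 genes were called in all, 0 to 3 members and 0 to 4 other reticulum genes up, the highest of each without saline mouse 3. In the combination 2 to 4 members and 19 to 36 others rose against cisplatin (19 without cisplatin mouse 1), 4 to 9 others rose against DCA (4 without DCA mouse 2 or combination mouse 3), and 0 to 3 members and 8 to 16 others rose against saline (3 members without saline or DCA mouse 3; 8 others without combination mouse 1 or 3, 9 without saline mouse 2). In the interaction 9 to 15 others were above 0 (9 without cisplatin or combination mouse 1) and 1 to 3 members below, with 3 without saline mouse 3.

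In the motif search, 1 mismatch in CCACG moved 3 windows to 5. Each group has 3 mice, and Sdf2l1 has as few as 174 counts in a library.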
